A study of Saccharomyces cerevisiae with 36 samples.

Results

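The comparison set the response of the wild strain YPS163 to 5% (v/v) ethanol against that of the laboratory strain DBY8268, 30 min after ethanol was added. YPS163 is an isolate of Saccharomyces cerevisiae from an oak site, and DBY8268 stands for the S288c reference background. All cultures, stressed and unstressed, had been kept in log phase in YPD medium at 30 °C for at least 8 doublings. Each 2-colour array set ethanol-treated cells of a strain against log-growth cells of that same strain, so a value is a log2 ratio of ethanol over unstressed, here called the response. The comparison was chosen by strain, time and treatment from the titles, and took 3 YPS163 arrays and 3 DBY8268 arrays out of 36 in the series, described as biological triplicates. The labels name no engineered allele in either strain. YPS163 over DBY8268 was also measured directly in log phase on 3 arrays, and each strain had 1 further array at 15, 45 and 60 min. A YPS163 MATa haploid and the strain M22 were treated for 30 min in the same way and are given only side by side, since any comparison with them would use the DBY8268 arrays again. Log base 2 and the direction of the ratios were read from the values, as the labels give neither. The p-values measure only the spread between replicate arrays. That spread was pooled per gene over 26 arrays in 9 groups of the series, the compared arrays among them.

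Ethanol in the medium disturbs the plasma membrane and protein folding in yeast. The known response includes the general stress genes that Msn2 and Msn4 activate, the chaperones that Hsf1 activates, and a fall in genes for making ribosomes. Sulfate assimilation and methionine synthesis (driven by Met4), the leucine pathway (driven by Leu3), general amino acid control (driven by Gcn4) and the phosphate regulon (driven by Pho4) are nutrient programmes with their own activators. They are not part of the general stress response, and they are the groups in which many of the differences described here were found.

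The 6 arrays held values for 5151 to 5324 genes in YPS163 and 5305 to 5813 in DBY8268. Replicate arrays correlated at r of 0.838 to 0.927 across genes in YPS163 and 0.844 to 0.947 in DBY8268. The precision is limited by the number of arrays, and the median standard error of a difference was 0.24 on the log2 scale. Across 5300 genes with at least 2 values in each strain, the mean responses of the strains correlated at r = 0.844, a description across genes that are not independent of each other.

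A difference is the YPS163 response minus the DBY8268 response, on the log2 scale. Of 5300 genes tested, 843 (15.9%) differed at an adjusted p under 0.05 in limma, with 551 higher in YPS163 (10.4%) and 292 lower (5.51%). The median size of the called differences was 0.88, against a median difference of 0.06 over all genes tested, and 345 of them were at least 2-fold. Among the 780 called genes with values on all 6 arrays, 775 had 3 same-number differences of one sign, where 54.1% of all genes with 6 values did. A call on these same arrays selects for such agreement, so it is no separate support for the calls. The count ranged from 551 without YPS163 array 3 to 795 without YPS163 array 1, and fell to 270 in a fit of the 6 arrays alone. This main fit did not pair same-numbered arrays. With replicate number as a block 845 genes were called, 792 of them shared with the main fit.

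The response itself was called for 60.3% of the genes tested in YPS163 and 59.6% of those tested in DBY8268. Of the 551 genes higher in YPS163, 134 rose in both strains, 108 fell in both, 143 rose in YPS163 with no call in DBY8268, and 107 fell in DBY8268 with no call in YPS163. Of the 292 lower genes, 52 rose in both, 45 fell in both, 96 rose in DBY8268 with no call in YPS163, and 71 fell in YPS163 with no call in DBY8268. The responses were called in opposite directions for 77 genes (1.45% of those tested), and 53 of these rose in YPS163 and fell in DBY8268. Those 53 included MET6, MET17, MET10, MET5, MUP1, LEU1, OAC1, BAT1, BAP3 and VTC3. The 24 genes with the opposite pattern included HSP30, NCE102, TPO1, HXT5, CHS1, QCR8 and COX8.

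**Figure D1:**
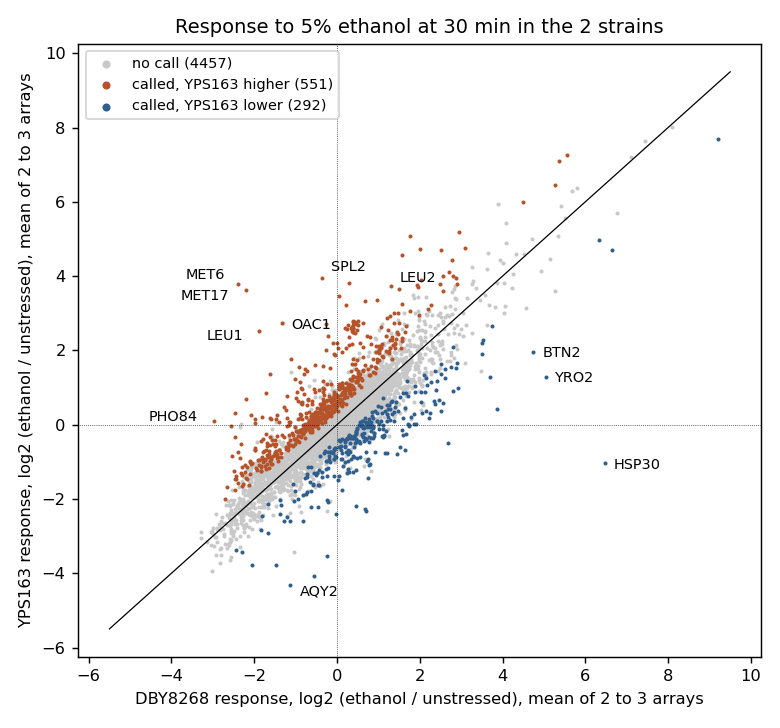
Mean response of each gene in DBY8268 (x axis) and YPS163 (y axis), log2 of ethanol over unstressed, for the 5300 genes tested. The 551 genes called higher in YPS163 lie above the line of equality and the 292 called lower lie below it, with MET6, MET17 and LEU1 at the upper left and HSP30 in the lower right.

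A pair of genes at the end of the sulfur pathway had the largest differences among those higher in YPS163. MET6 (YER091C), methionine synthase, had responses of 3.17, 3.79 and 4.40 on the YPS163 arrays and -2.60, -2.62 and -1.94 on the DBY8268 arrays. The transcript rose in every YPS163 array and fell in every DBY8268 array. The difference was 6.17 ± 0.30 (SE, n = 3 arrays per strain; limma adjusted p = 1.92e-11), a 72.2-fold gap between the response ratios. MET17 (YLR303W), which joins sulfide to the carbon chain of homocysteine, had 3.14, 3.45 and 4.25 in YPS163 and -2.28, -2.37 and -1.96 in DBY8268. Its difference was 5.82 ± 0.31 (limma adjusted p = 6.97e-11), again with no overlap between the strains.

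Of 11 members of sulfate uptake and assimilation tested, 6 were higher in YPS163, MET17 among them, none was lower, and the list's median difference was 0.75. MET10 and MET5, the subunits of sulfite reductase, differed by 1.61 ± 0.33 (limma adjusted p = 0.00232) and 1.26 ± 0.22 (5.02e-04), and both rose in YPS163 and fell in DBY8268. MET10 responses were 0.19, 1.10 and 1.17 in YPS163 and -1.24, -0.72 and -0.41 in DBY8268. MET14, adenylylsulfate kinase, differed by 1.14 ± 0.28 (limma adjusted p = 0.00771), from a fall in DBY8268 and no call in YPS163. The sulfate permeases were not called: SUL1 differed by 0.75 (2 arrays per strain) and SUL2 by -0.64.

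In the methionine and cysteine list, 12 of 26 members tested were higher in YPS163 and none was lower, with a median difference of 0.66. MUP1, the high-affinity methionine permease, read 1.26, 1.26 and 2.17 in YPS163 and -1.27, -1.0 and -0.46 in DBY8268, a difference of 2.47 ± 0.23 (limma adjusted p = 3.38e-07). The permease gene MMP1, for S-methylmethionine, differed by 2.79 ± 0.49 (limma adjusted p = 6.97e-04) with 2 YPS163 values. SAM2, which makes S-adenosylmethionine, fell in DBY8268 (-2.50, -2.16 and -1.54) and was not called in YPS163 (-0.39, 0.09 and 1.08). STR3, which turns cystathionine towards homocysteine, rose in YPS163 (2.04, 2.67 and 3.42) with no call in DBY8268 (-0.39, -0.13 and -0.31). Its difference of 2.99 ± 0.81 was called with all arrays (limma adjusted p = 0.0157) and not without YPS163 array 3 (2.63). The activator gene MET4 differed by -0.39 ± 0.16 and its cofactor MET28 by 1.10 ± 0.38, neither of them called (limma adjusted p = 0.112 and 0.0556), though MET28 was called once arrays were centred on their medians or without YPS163 array 1, and MET4 without log-phase array 2 (limma adjusted p = 0.0447).

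The leucine and branched-chain pathway had the largest median difference of the 23 lists, 1.85. Of its 15 members tested, 12 were higher in YPS163 and none was lower. LEU1 (YGL009C), isopropylmalate isomerase, read 2.17, 2.70 and 2.68 in YPS163 and -2.09, -2.07 and -1.48 in DBY8268. OAC1 (YKL120W), a mitochondrial carrier that also exports the leucine precursor isopropylmalate, read 2.67, 2.68 and 2.85 against -1.33, -1.25 and -1.38. Both rose in all 3 YPS163 arrays and fell in all 3 DBY8268 arrays, with differences of 4.40 ± 0.21 (limma adjusted p = 1.19e-11) and 4.05 ± 0.18 (1.03e-11). LEU2, the next enzyme of the pathway, rose in both strains and rose further in YPS163: 3.52, 3.58 and 4.14 against 1.42, 1.25 and 1.21, a difference of 2.45 ± 0.18 (limma adjusted p = 4.43e-08). BAT1, the mitochondrial branched-chain transaminase, read 0.24, 1.21 and 1.12 against -1.82, -1.89 and -1.45, a difference of 2.58 ± 0.23 (limma adjusted p = 3.68e-07). The branched-chain permease genes BAP2 and BAP3 were higher in YPS163 by 1.85 ± 0.22 and 2.26 ± 0.34. LEU3, the activator of the pathway, was not called (0.04 ± 0.27, limma adjusted p = 0.949).

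**Figure D2:**
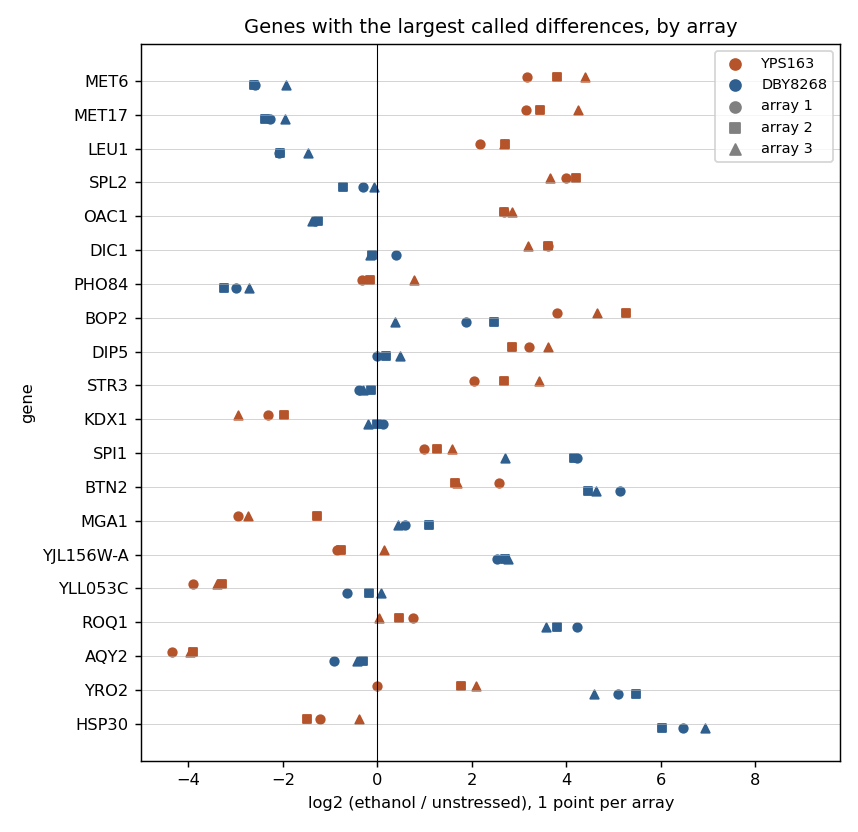
Response of the 10 genes with the largest called difference each way, log2 of ethanol over unstressed (x axis), 1 point per array and 1 line per gene. The points of the strains do not overlap in these genes, as in 28.6% of all genes with 6 values, and YPS163 points lie right of DBY8268 points in the upper 10 genes and left of them in the lower 10. The genes were chosen on these same values.

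Among the other amino acid pathways, 20 of 46 genes tested were higher in YPS163 and 1, HIS6 of histidine synthesis, was lower, with a median difference of 0.53. On the single arrays of the later times the median of this list was negative, as given below. The call of HIS6 ended without YPS163 array 3 or DBY8268 array 1 or 3 (-0.53 to -0.39). GLN1, glutamine synthetase, fell in DBY8268 (-1.39, -1.39 and -2.04) with no call in YPS163 (0.44, 0.36 and -0.33), a difference of 1.76 ± 0.28 (limma adjusted p = 1.98e-04). TRP5 of tryptophan synthesis and LYS12 of lysine synthesis differed by 1.48 ± 0.28 and 1.29 ± 0.13. GCN4, the activator of general amino acid control, fell in both strains and fell less in YPS163 (-1.14, -0.44 and -0.14 against -1.83, -1.64 and -1.59, limma adjusted p = 6.78e-04). On the single arrays at 15, 45 and 60 min the GCN4 difference had the other sign, at -0.24, -0.11 and -0.55. DIP5, the permease for glutamate and aspartate, rose in YPS163 (3.21, 2.85 and 3.61) and read 0.00, 0.18 and 0.48 in DBY8268, a difference of 3.00 ± 0.25 (limma adjusted p = 5.62e-08). BOP2, a gene of unknown function, read 3.81, 5.26 and 4.65 against 1.87, 2.46 and 0.37, and its difference of 3.01 ± 0.76 was not called without YPS163 array 2 (2.66) or DBY8268 array 3 (2.41).

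Members of the phosphate regulon also differed, from lower unstressed levels. Of 30 tested, 13 were higher in YPS163 and 1 was lower, with a median difference of 0.73. SPL2 (YHR136C), a regulator of low-affinity phosphate uptake, read 4.0, 4.20 and 3.66 in YPS163 and -0.31, -0.72 and -0.07 in DBY8268, a difference of 4.32 ± 0.53 (limma adjusted p = 1.15e-05). PHO84 (YML123C), the high-affinity phosphate transporter, fell in DBY8268 (-2.99, -3.24 and -2.71) and was not called in YPS163 (-0.33, -0.15 and 0.77), a difference of 3.08 ± 0.28 (limma adjusted p = 2.33e-07). VTC3, a subunit of the vacuolar polyphosphate polymerase, rose in YPS163 (1.34, 1.07 and 1.66) and fell in DBY8268 (-1.50, -1.58 and -1.75), a difference of 2.97 ± 0.18 (limma adjusted p = 4.12e-10). The other polymerase subunits VTC4, VTC2 and VTC1 differed by 1.77, 1.39 and 1.21, all called. PHO8, the vacuolar alkaline phosphatase, and PHO86, which PHO84 protein needs to leave the endoplasmic reticulum, both rose in YPS163 and fell in DBY8268. The lower member was PHO87, a low-affinity transporter (-0.73, not called after arrays were scaled to one spread). PHO4, the activator, differed by 0.70 ± 0.21 (limma adjusted p = 0.0303), a call lost without any of 4 arrays in turn, DBY8268 array 1 or 2 or YPS163 array 2 or 3 (0.61 to 0.69). The list also holds CTF19, a kinetochore gene next to VTC3, whose 2.90 dropped to 1.82 without YPS163 array 1, and the glycerol phosphatase gene GPP2, at 1.82 ± 0.56, a call that ended when any of 5 arrays was left out (1.49 to 1.93).

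Genes of mitochondrial metabolism split by function. In the TCA cycle list, 10 of 22 members tested were higher in YPS163, none was lower, and the median difference was 0.85. CIT2, the peroxisomal citrate synthase, rose in both strains and further in YPS163 (4.62, 4.77 and 4.79 against 2.34, 2.04 and 1.66), a difference of 2.71 ± 0.31 (limma adjusted p = 6.11e-06). ACO1, aconitase, fell in DBY8268 (-2.15, -2.10 and -1.72) with no call in YPS163 (-0.89, 0.34 and 0.99), a difference of 2.14 ± 0.32. PDH1, a methylcitrate dehydratase, differed by 3.52 ± 0.50 with 2 YPS163 values. DIC1 (YLR348C), the dicarboxylate carrier of the inner membrane, read 3.61, 3.61 and 3.19 in YPS163 and 0.40, -0.11 and -0.16 in DBY8268, a difference of 3.43 ± 0.24 (limma adjusted p = 3.30e-09). In the list of 17 mitochondrial carriers tested, 5 were higher and 1 was lower, with a median of 0.10. The lower one was AAC3, the ADP/ATP carrier of low oxygen, at -1.45 ± 0.27, a call that ended with arrays scaled to one spread (-1.38).

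Of 29 respiratory chain genes tested, 8 were lower in YPS163 and 2 were higher, with a median difference of -0.51. QCR8 and COX8, subunits of the bc1 complex and of cytochrome c oxidase, fell in YPS163 and rose in DBY8268. QCR8 read -0.24, -0.49 and -0.62 against 0.85, 0.50 and 0.61, a difference of -1.10 ± 0.18 (limma adjusted p = 3.41e-04). COX8 read -0.62, -0.41 and -0.74 against 0.62, 0.22 and 0.39, a difference of -1.0 ± 0.23 (limma adjusted p = 0.00618). The 2 higher members were CYB2, lactate dehydrogenase of the intermembrane space (1.85 ± 0.32), and GUT2, the mitochondrial glycerol phosphate dehydrogenase (0.87 ± 0.28), which was not called with the replicate block or without DBY8268 array 1 (0.70) or 3 (0.90). For ATP synthase, 5 of 16 were lower, among them the inhibitor gene INH1 (-1.24 ± 0.31, not called after scaling), and none was higher, with a median of -0.46. Scaling all arrays to one spread left 4 lower respiratory chain genes and 2 lower ATP synthase genes, and the count of 5 became 1 to 3 without DBY8268 array 1 or 2 or YPS163 array 2 or 3. In log phase these same lists stood higher in YPS163, with median log2 ratios over DBY8268 of 1.19 and 0.91.

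HSP30 had the largest difference of all genes tested. HSP30 (YCR021C), a plasma membrane protein that restrains the proton pump, read -1.22, -1.50 and -0.39 in YPS163 and 6.46, 6.03 and 6.93 in DBY8268. The transcript fell in YPS163 and rose in DBY8268, and the difference was -7.51 ± 0.46 (limma adjusted p = 6.65e-10), a 182.3-fold gap between the response ratios. YRO2, of the same protein family, read 0.00, 1.77 and 2.08 in YPS163 and 5.09, 5.48 and 4.58 in DBY8268, a difference of -3.77 ± 0.92 (limma adjusted p = 0.0106). MRH1, another relative, differed the other way by 1.08 ± 0.24 (limma adjusted p = 0.00436).

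Of 29 heat shock chaperone genes tested, 12 were lower in YPS163 and 1, the Hsp90 cochaperone gene SBA1, was higher, with a median difference of -0.71. The call of SBA1 ended without array 1 of either strain (0.45 and 0.53). BTN2, a factor that gathers misfolded proteins, rose in both strains and less in YPS163 (2.57, 1.65 and 1.69 against 5.14, 4.46 and 4.63), a difference of -2.77 ± 0.41 (limma adjusted p = 1.14e-04). APJ1, a J-protein, and FES1, an exchange factor for Hsp70, rose in DBY8268 with no call in YPS163. APJ1 read -0.04, 0.10 and 0.50 against 2.24, 2.15 and 2.27, a difference of -2.03 ± 0.24 (limma adjusted p = 9.20e-06). FES1 read 0.09, -0.57 and -0.32 against 1.13, 1.64 and 2.02, a difference of -1.86 ± 0.20. The small heat shock protein genes HSP26 and HSP42 rose strongly in both strains and differed by -1.51 ± 0.39 and -1.36 ± 0.45 (limma adjusted p = 0.0143 and 0.0464). Their values overlapped between the strains, and both calls ended when any of 4 arrays, arrays 1 and 2 of each strain, was left out (-1.36 to -1.18 and -1.26 to -1.10). HSP104, the disaggregase, differed by -0.25 and HSP82, the inducible Hsp90, by -0.65, neither of them called. HSF1 was not called (-0.41 ± 0.30, limma adjusted p = 0.411).

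**Figure D3:**
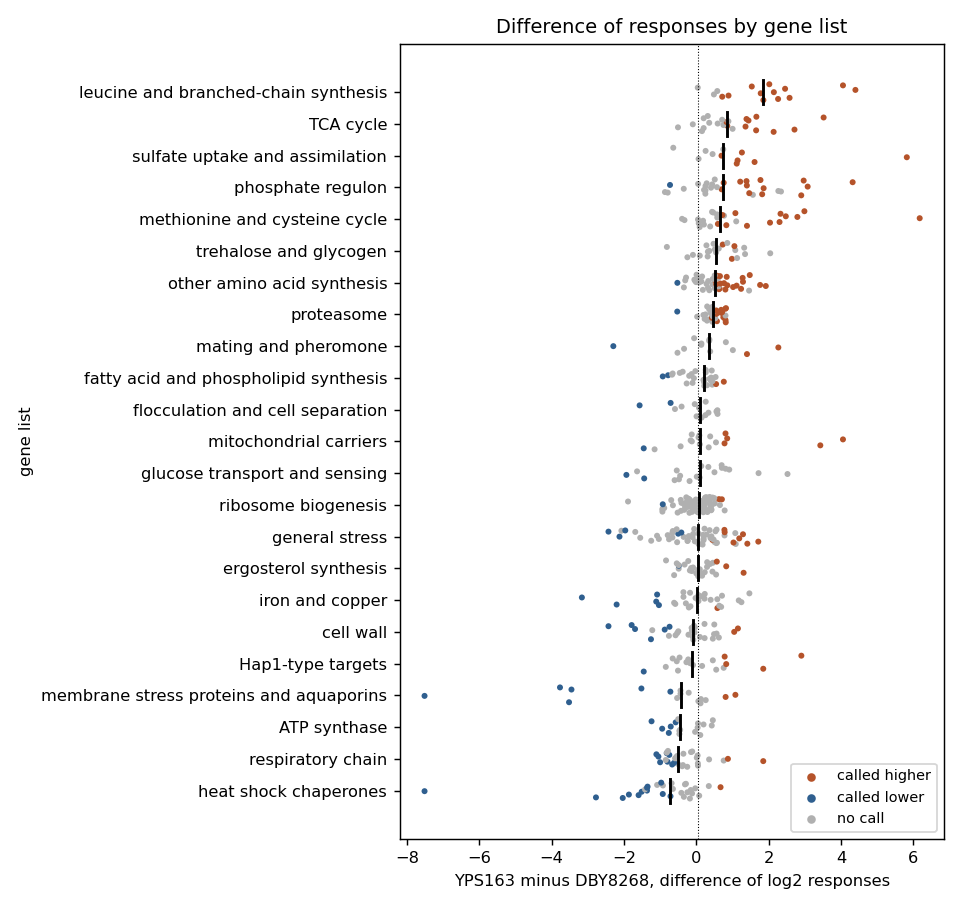
Difference of responses, YPS163 minus DBY8268 on the log2 scale (x axis), for each tested member of the 23 gene lists (y axis). Short black lines mark list medians and the dotted line marks the median of all genes tested, 0.06. The leucine list has its median at 1.85 and the chaperone list at -0.71.

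Among membrane proteins and aquaporins, 6 of 16 were lower in YPS163 and 2 were higher. AQY2 (YLL052C), a water channel, fell in both strains and further in YPS163 (-4.34, -3.90 and -3.96 against -0.91, -0.31 and -0.43), a difference of -3.52 ± 0.24 (limma adjusted p = 2.40e-09). The overlapping frame YLL053C differed by -3.28 ± 0.20, and RNA of the one hybridising to the probe of the other cannot be told apart. AQY1, the other aquaporin, was not called (0.12 ± 0.29, limma adjusted p = 0.842). ROQ1, a cofactor of Ubr1 in protein degradation, rose in DBY8268 (4.23, 3.81 and 3.56) with no call in YPS163 (0.75, 0.46 and 0.04), a difference of -3.45 ± 0.49. The eisosome genes NCE102 and SUR7 were lower, with differences of -2.12 ± 0.21 and -1.52 ± 0.18. NCE102 fell in YPS163 (-0.69, -0.57 and -0.53) and rose in DBY8268 (1.26, 1.45 and 1.87). MGA1, similar to heat shock factors, and KDX1, a paralogue of the cell wall kinase Slt2, were also lower, at -3.04 ± 0.54 and -2.39 ± 0.26.

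The general stress list showed little net difference. Of 55 genes tested, 8 were higher, 5 were lower, and the median was 0.06, the same as over all genes tested. These calls made up 23.6% of the list, against 15.9% of all genes tested. HSP12 rose to between 6.84 and 8.20 on the 5 arrays with a value and was not called different (0.20 ± 0.73, limma adjusted p = 0.896). CTT1, cytosolic catalase, read 2.26, 2.83 and 2.53 in YPS163 and 1.49, 2.03 and 2.45 in DBY8268, with overlapping values and no call (0.55 ± 0.33, limma adjusted p = 0.288). GLK1, glucokinase, rose further in YPS163 (6.56, 7.08 and 8.14 against 5.52, 5.74 and 5.38), a difference of 1.71 ± 0.31 (limma adjusted p = 6.78e-04). SPI1, a cell wall protein of stationary phase, rose less in YPS163 (0.99, 1.26 and 1.58 against 4.23, 4.17 and 2.71), and its difference of -2.43 ± 0.67 was not called without DBY8268 array 1 (-2.16) or 2 (-2.19). Leaving out any of the 6 arrays moved one of these counts, which ranged over 4 to 7 higher and 2 to 5 lower. In trehalose and glycogen metabolism, 3 of 21 were higher (TPS1, TPS3 and ATH1), none was lower, and the median was 0.55. The share called was 14.3%, against 15.9% of all genes tested. Without DBY8268 array 1, none of those 3 genes was called. The activator genes MSN2 and MSN4 were not called (-0.10 ± 0.17 and -0.35 ± 0.29).

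Of 28 ergosterol genes tested, 3 were higher and 1 was lower, a share called of 14.3% against 15.9% of all genes, with a median of 0.05. The 3 became 1 without YPS163 array 2 or 3 or DBY8268 array 1 or 2, and the median turned to -0.09 without YPS163 array 1, to -0.05 without DBY8268 array 1 and to just under 0 without DBY8268 array 2. ERG13, HMG-CoA synthase, fell in both strains and less in YPS163 (-1.29, -0.66 and -0.10 against -2.23, -2.11 and -1.63), a difference of 1.31 ± 0.25 (limma adjusted p = 0.00115). Of 28 fatty acid and phospholipid genes, 2 were higher and 2 were lower, again 14.3%, and none was higher without YPS163 array 3 or DBY8268 array 1 or 2. ELO1, a fatty acid elongase, was among the higher ones at 0.76 ± 0.24 (limma adjusted p = 0.0345), a call lost without DBY8268 array 1 (0.74) or 2 (0.68) or YPS163 array 3 (0.46). EDE1, an endocytic scaffold protein, read 0.99, 0.97 and 1.29 in YPS163 and -0.31, 0.14 and 0.31 in DBY8268, a difference of 1.04 ± 0.20 (limma adjusted p = 0.00142).

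Among genes of the Hap1 type, 4 of 18 were higher and 1 was lower, with a median of -0.13 that turned to 0.28 without DBY8268 array 3. The 4 became 2 without YPS163 array 2 or 3 or DBY8268 array 1 or 2. YHB1, the nitric oxide oxidoreductase, rose in YPS163 (0.56, 0.85 and 0.69) and fell in DBY8268 (-2.08, -2.41 and -2.12), a difference of 2.90 ± 0.35 (limma adjusted p = 1.20e-05). It started far lower in YPS163, with log-phase ratios over DBY8268 of -6.03, -5.0 and -4.19. Its level in ethanol, estimated as described below, was still lower in YPS163 (-2.17, limma adjusted p = 0.00176). CYC1, iso-1-cytochrome c, was not called in response (0.76 ± 0.27, limma adjusted p = 0.0601), except without YPS163 array 1. In the iron and copper list, 5 of 28 were lower and 1 was higher. FRE4, a reductase for iron bound to siderophores, read -4.45, -3.89 and -4.58 in YPS163 and -0.71 and -1.58 on 2 DBY8268 arrays, a difference of -3.16 ± 0.39. The FRE4 log-phase ratios were 5.46, 4.46 and 4.21, and its estimated level in ethanol was higher in YPS163 (1.55, limma adjusted p = 0.0299). MAC1, the copper-sensing activator, and its target CTR1, the copper transporter, were lower by log2 differences of -1.08 ± 0.21 and -1.03 ± 0.31. The count of 5 dropped to between 1 and 3 without any of the DBY8268 arrays or YPS163 array 1 or 2, and each of those omissions ended the call of CTR1 (-1.10 to -0.90).

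Proteasome genes had median responses of 0.94 in YPS163 and 0.41 in DBY8268. Of 29 tested, 12 were higher in YPS163 and 1 was lower, with a median difference of 0.45. The count of 12 fell to 5 without YPS163 array 1 or DBY8268 array 3, to 7 without DBY8268 array 2 and to 6 with arrays scaled to one spread. It was 1 with the 6 arrays and the replicate block and 0 with the 6 arrays alone. With MATa array 3 as deposited, whose values sit 1 position out of place, it was 2. PRE4, a subunit of the core particle, rose further in YPS163 (1.55, 1.12 and 1.40 against 0.71, 0.54 and 0.40), a difference of 0.81 ± 0.13 (limma adjusted p = 2.61e-04). The lower member was RPN4, the activator of these genes, at -0.53 ± 0.17 (limma adjusted p = 0.0422), a call that ended when any of 4 arrays was left out (-0.52 to -0.34). In the cell wall list 6 of 29 were lower (3 without DBY8268 array 2) and 2 were higher. That was a share called of 27.6%, against 15.9% of all genes tested. CHS1, a chitin synthase, fell in YPS163 (-1.10, -1.05 and -0.42) and rose in DBY8268 (0.21, 0.34 and 0.64). Of 14 genes for flocculation and cell separation, 2 were lower, FLO5 and FLO9, a share called of 14.3% against 15.9% of all genes tested. These flocculins share sequence, so a separate call for each is uncertain. The call of FLO9 ended without YPS163 array 1 (-0.47) or DBY8268 array 2 (-0.67) or 3 (-0.64). Glucose transport had 2 of 19 lower, HXT5 and HXT17, with 2 YPS163 values each and 2 DBY8268 values for HXT17. Its share called was 10.5%, also under that of all genes. The count of 2 became 1 without 5 of the arrays in turn and 0 without YPS163 array 3, and 3 genes were higher without YPS163 array 1. Of 13 mating genes with enough values 2 were higher and 1 was lower, a share called of 23.1% against 15.9% of all genes tested. MFA1, MFA2, both alpha-factor genes and STE3 had too few values to be tested. For ribosome biogenesis, 2 of 81 were higher and 1 was lower, with median responses of -2.19 in YPS163 and -2.32 in DBY8268; without 1 array, 0 to 4 were called in each direction.

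A larger response need not give a higher level, so the level in ethanol was estimated as the log-phase log2 ratio of YPS163 over DBY8268 plus the difference of responses, in the same limma fit. Of 5209 genes tested, 406 had a higher estimated level in YPS163 (7.79%) and 384 a lower one (7.37%). Of the 551 genes with the higher response in YPS163, 212 also had the higher level in ethanol and 41 had a lower one. For 147 of the 551, the unstressed level was called lower in YPS163 and no level difference was called in ethanol. Of the 292 genes with the lower response, 137 had the lower level in ethanol, 9 a higher one, and 46 were called higher in log phase with no call in ethanol. Across 5286 genes, the difference of responses and the log-phase ratio correlated at r = -0.252, a description across genes in which both values depend on the unstressed levels.

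The groups above differed in this respect. LEU1 had log-phase ratios of 0.16, -0.09 and 0.32, with no call, and an estimated gap in ethanol of 4.53 (limma adjusted p = 1.69e-10). OAC1, already called higher in log phase (0.57, 0.47 and 0.19; limma adjusted p = 0.0257), had a gap of 4.46 and LEU2 one of 2.40, and 7 of 13 leucine genes with an estimate were higher in YPS163. MET6 and MET17 started lower, with log-phase ratios of -3.28, -3.07 and -2.93 for MET6, and stood higher in ethanol by 3.08 and 2.25 (limma adjusted p = 6.49e-06 and 3.11e-04). PHO84 had log-phase ratios of -2.77, -2.87 and -3.21 and an estimated gap in ethanol of 0.13 ± 0.34 (limma adjusted p = 0.856). SPL2 had more scattered ratios of -5.74, -2.77 and -4.32 and a gap of 0.04 ± 0.65 (limma adjusted p = 0.975). A gap with no call at such an SE does not show equal levels. HSP30 had log-phase ratios of 0.07, -0.17 and -0.45 and stood at -7.69 in ethanol (limma adjusted p = 6.19e-09).

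Of 29 chaperone genes, 18 had a lower estimated level in YPS163 and 1 a higher one, with a median gap of -1.36. AQY2 kept a higher level, 1.59 in ethanol after 5.59, 4.78 and 4.96 in log phase. CYC1 stood at 3.98 in ethanol (limma adjusted p = 3.29e-08), after 3.63, 3.01 and 3.03 unstressed. In the ergosterol list 12 of 27 genes with an estimate were higher in YPS163 and 2 were lower, and in the respiratory chain 13 of 28 were higher and none lower. The largest higher gaps apart from LEU1 and OAC1 belonged to the mitochondrial frames ATP6 (5.31), Q0182 (4.68) and VAR1 (4.49), whose responses were not called different. The log-phase arrays hybridise RNA of different strains, and a part of any log-phase ratio due to sequence differences at the probe was not tested. Arrays 1, 2 and 3 of this log-phase group correlated with the mean of the others at r = 0.803, 0.684 and 0.749.

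A set of 55 frames without a gene name in RefSeq had log-phase ratios under -4. Of these, 33 were called higher and 1 lower in response, with differences from -1.51 to 2.41 and a median of 1.03. Over all genes tested, 10.4% were called higher and 5.51% lower. The unstressed YPS163 level on which the frames were picked also enters the response, so these counts are not independent of the choice. The estimated level in ethanol was called lower in YPS163 for 54 of them. That estimate contains the log-phase ratio used to pick the frames, and no difference in the set exceeded 2.41. A level under 0 was therefore fixed by the choice and is no separate result. Without these frames, 518 genes were higher in response. Of 92 genes with log-phase ratios under -4 in all, 33.3% of YPS163 ethanol values were missing against 6.88% of DBY8268 values.

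**Figure D4:**
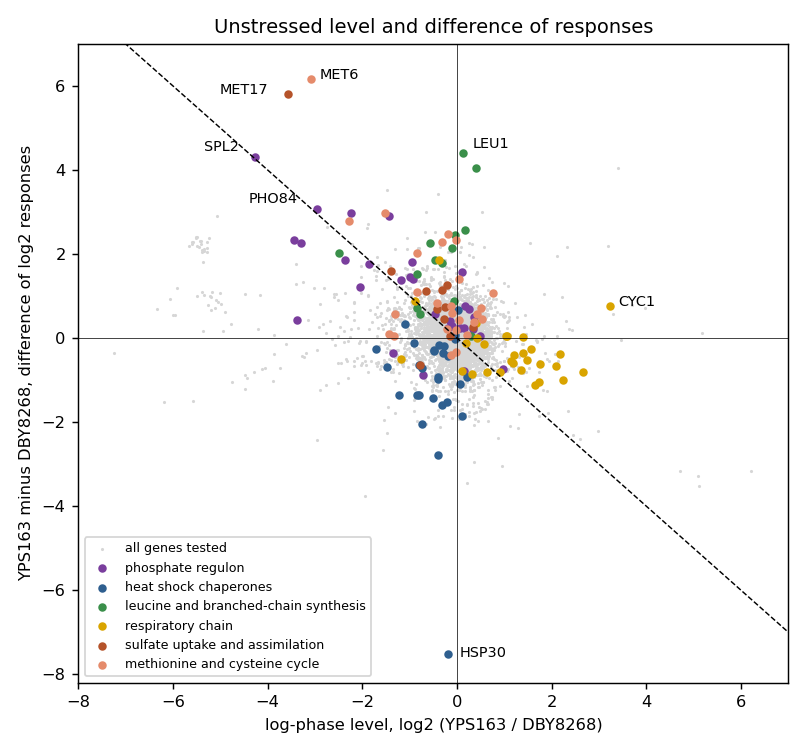
Log-phase level of YPS163 over DBY8268, log2 (x axis), and difference of log2 responses (y axis), for all genes tested (grey) and 6 gene lists (coloured). On the dashed line the estimated levels in ethanol are equal. PHO84 and SPL2 lie near it, with gaps of 0.13 ± 0.34 and 0.04 ± 0.65 (SE). LEU1 lies 4.53 above it and HSP30 7.69 below it.

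The single time-course arrays gave the same contrast at other times, with array 1 at 30 min belonging to the same course. Of the genes called higher at 30 min, 454 of 536 with a value were also higher at 15 min (median difference 0.56), 476 of 539 at 45 min (0.65) and 374 of 515 at 60 min (0.30). Of those called lower, 245 of 282, 269 of 291 and 207 of 260 were lower at 15, 45 and 60 min, with medians of -0.66, -0.78 and -0.54. The calls used array 1 of the same course, so these counts are not independent of them, and the share over all genes was not counted. Against the 30 min difference of arrays 2 and 3 alone, the differences at 15, 45 and 60 min correlated across genes at r = 0.363, 0.592 and 0.401. There was no replicate at these times, so no test was made.

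The groups followed different courses. MET6 differed by -0.94 at 15 min, 4.90 at 45 min and 5.35 at 60 min, with YPS163 at -2.16 at 15 min and 4.21 at 60 min. MET17 differed by 1.37, 5.68 and 6.08 at those times. LEU1 differed by -0.33, 2.10 and -0.23, and OAC1 by 0.02, -0.20 and -1.28, so that their differences stood near or under 0 at 15 and 60 min. The leucine list as a whole had medians of -0.01, -0.05 and -0.42 at 15, 45 and 60 min. The list of other amino acid pathways had medians of 0.335, -0.37 and -0.705, so its median was lower in YPS163 at 45 and 60 min. PHO84 differed by -0.05, 2.24 and 2.69, while VTC3 was higher in YPS163 throughout, at 1.44 against -1.12 by 15 min. HSP30 stood at 3.18 in YPS163 and 6.29 in DBY8268 at 15 min, then at -2.86 and 3.59 at 45 min and -3.63 and 1.10 at 60 min. AQY2 differed by -2.99, -4.70 and -4.65.

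**Figure D5:**
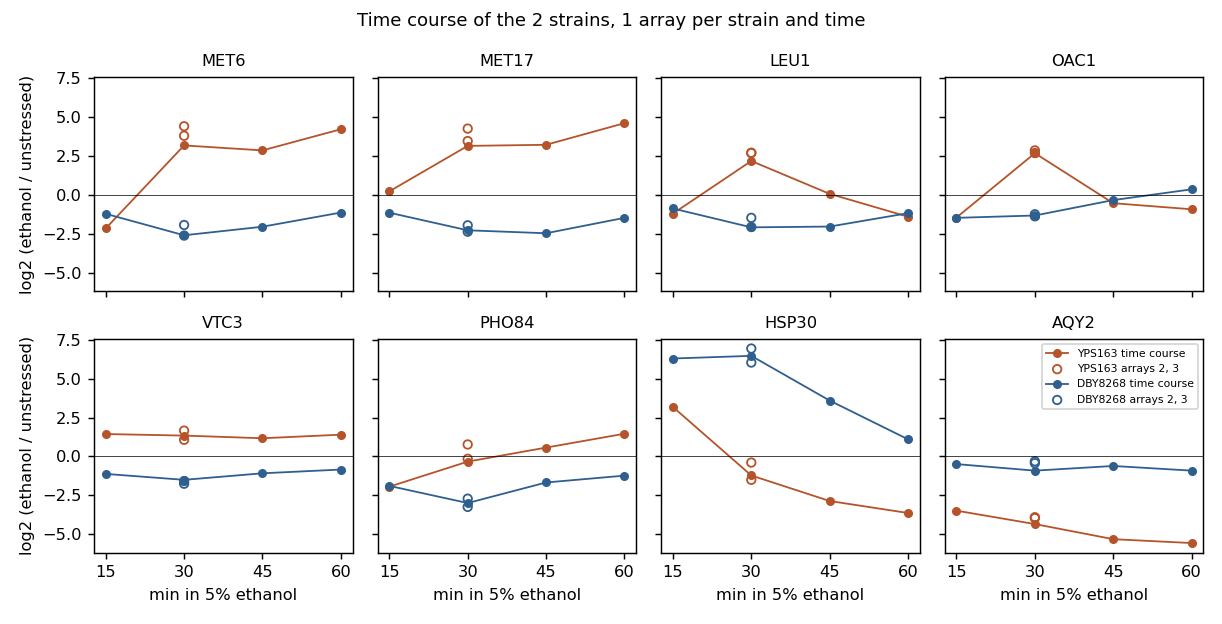
Response of 8 genes, log2 of ethanol over unstressed (y axis), at 15, 30, 45 and 60 min (x axis). Filled points joined by lines are the single time-course arrays of each strain and open points are arrays 2 and 3 at 30 min. The MET6 difference grows to 5.35 at 60 min, while LEU1 and OAC1 separate at 30 min and differ by -0.23 and -1.28 at 60 min.

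The haploid YPS163 MATa (2 arrays used) and M22 (3 arrays) gave the following values. MET6 read 1.23 and 1.06 in the haploid and -2.12, -2.11 and -1.66 in M22. LEU1 read 1.81 and 2.02 in the haploid and -1.11, -0.79 and -0.38 in M22. OAC1 read 2.38 and 2.40 in the haploid and -0.77, -0.20 and -0.49 in M22. HSP30 read 0.68 and 1.75 in the haploid and 2.87, 1.27 and 1.81 in M22. PHO84 read -1.29 and -1.94 in the haploid. The haploid values for LEU1 and OAC1 lay near those of YPS163, and those for MET6, HSP30 and PHO84 lay between the YPS163 and DBY8268 values.

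Over up to 35 arrays, the genes whose values followed MET6 most closely were MET17 (Pearson r = 0.910, 35 arrays), BAP3 (0.852, 33 arrays), SER33 (0.837), GSH1 (0.834) and AST2 (0.820). Those closest to HSP30 were IRA2 (0.865), EEB1 (0.814), TAF3 (0.804), LST8 (0.801) and NCE102 (0.788). These arrays mix strains, mutants, times and log-phase comparisons and include the 6 compared here, so the values describe likeness of pattern only.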

How the data were processed

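The authors deposited 1 table of log2 ratios for 6295 frames on 36 two-colour arrays. Its normalisation is not given in the sources used here, and the unit and direction were read from the values. HAP1 stood at 3.47 in the log-phase hap1D ratios as deposited, so those were turned to mutant over parent. Names were matched to RefSeq R64 (5830 of 6295 frames). Array 2 of each strain carries swapped labels, and array 1 belongs to the time course.

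limma 3.58.1 in R 4.3.3 fitted 1 mean per group over 26 arrays in 9 groups, without YPS163 MATa ethanol array 3, whose values sit 1 position out of place. Genes with at least 2 values in each strain were tested, two-sided, with Benjamini-Hochberg adjustment and calls under 0.05. Same-numbered arrays deviated together (r = 0.392, 0.220 and 0.295 over 4682 genes), so the numbers were taken to pair the arrays, and replicate number as a block was an alternative. The main fit left this pairing out, so the SEs and adjusted p-values printed here do not use it. The response calls within each strain had no block in any fit.

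The gene groups and lists were chosen with earlier results of these data known. Named genes were the 10 largest called differences each way with all 6 values and 3 same-sign pairs, the 4 largest called per list (the 2 largest not called where fewer than 2 were called), the 5 largest each way among opposite calls and among level gaps, the 5 most like MET6 and HSP30, and 16 chosen genes. Others in the text were named from the lists after their values were seen. One gene that the rule names is not reported here. Promoter sequences were not used here. On simulated data for 5300 genes, 29.9% of 1.5-fold, 61.2% of 2-fold and 95.5% of 4-fold differences were recovered.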

Additional observations from a re-analysis of the deposited data

Results flagged for a closer look

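For 24 of the named genes the responses of the strains were called in opposite directions and the difference itself passed the limma test. Over all 5300 genes tested, 77 (1.45%) did so. Some genes were named because of such calls and others for large called differences on these same arrays, so the count of 24 is no separate result. Genes that rose in YPS163 and fell in DBY8268, with the log2 difference of responses, were MET6 (6.17), MET17 (5.82), LEU1 (4.40), OAC1 (4.05), VTC3 (2.97), YHB1 (2.90), BAT1 (2.58), MUP1 (2.47), BAP3 (2.26), GSH1 (1.86), MET10 (1.61), AGA1 (1.40), SER33 (1.28) and MET5 (1.26). Those that fell in YPS163 and rose in DBY8268 were HSP30 (-7.51), NCE102 (-2.12), TPO1 (-1.97), HXT5 (-1.93), DAL1 (-1.86), CHS1 (-1.25), EEB1 (-1.19), QCR8 (-1.10), MAC1 (-1.08) and COX8 (-1.0). GSH1 makes the first enzyme of glutathione synthesis and TPO1 a polyamine exporter. The call of AGA1 was lost without DBY8268 array 1 (1.07), and AGA1, HXT5 and DAL1 each had 2 YPS163 values.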

How the results depend on the processing

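No called difference among the 116 named genes changed sign under an alternative. The count of 843 genes became 845 with the replicate block (792 shared), which ended the calls of QCR10, FET4, CHO2 and NOP7 among the named genes and changed no other call. It was 555 with the 6 arrays alone and the replicate block (459 shared), 270 with the 6 arrays and no replicate block, and 421 with MATa array 3 as deposited. With the 6 arrays and no replicate block, no gene was called in the lists for the proteasome, ATP synthase, ergosterol, fatty acids and phospholipids, or ribosome biogenesis. Leaving out 1 of the 6 arrays gave 551 (without YPS163 array 3) to 795 genes. Opposite calls, 77 in all, became 46 with the 6 arrays and the replicate block, 45 with the 6 arrays alone and 52 with MATa array 3 as deposited, and 56 to 85 without 1 array. The 790 level differences became 425 with that array as deposited, 517 with arrays scaled to one spread, and 579 (without log-phase array 1) to 826 without 1 array. The fits of the 6 arrays have fewer arrays to estimate the spread. MATa array 3 correlated with the rest of its group at r = 0.164 as deposited and 0.7465 when shifted by 1 position. As deposited, its values therefore enter the spread of the wrong genes. The cause of the other changes was not tested. Without 1 array of the 6, between 8 and 20 named genes lost a call. The level estimate needs the log-phase arrays and was not made in fits without them, and the promoter comparison was not run. In simulated data, 61.2% of 2-fold and 29.9% of 1.5-fold differences were recovered, so a gene with no call may still differ by that much.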

Other observations

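Regulators and targets could be set side by side. The activator genes MET4, LEU3, HSF1, MSN2 and HAP1 were not called different in response between the strains, with differences between -0.41 and 0.04, while GCN4 (1.11) and PHO4 (0.70) were. MET4 was called in 1 alternative, without log-phase array 2. The call of PHO4 ended without any of 4 arrays in turn. GCN4 differed by -0.24, -0.11 and -0.55 on the single arrays at 15, 45 and 60 min. HAP1 had log-phase ratios of -0.97, -1.41 and -0.92 on its own probe. ENA1, a sodium pump gene, had log-phase ratios of -5.16, -2.27 and -1.29 and no call in response (0.26 ± 0.57). YJL156W-A read -0.85, -0.77 and 0.13 in YPS163 and 2.54, 2.70 and 2.77 in DBY8268, and its log-phase ratios were 6.58, 6.49 and 5.54. YRO2 had log-phase ratios of -4.56 and 0.69 on the 2 arrays with a value, and an estimated level gap of -5.70.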
